A study of Mus musculus with 6 samples.

Results

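The receptors for the cytokines BAFF and APRIL are encoded by 3 genes, Tnfrsf13b (TACI), Tnfrsf13c (BAFF-R) and Tnfrsf17 (BCMA). They were found by their gene symbol among the 39017 genes of the count table, and all 3 were present. Of the 3, 2 passed the filter on low counts, which left 18268 genes to be tested, and Tnfrsf17 did not. RNA was sequenced from germinal center–like B cells (iGBs), which were splenic B cells of C57BL6/J mice activated for 3.5 days with CD40L, BAFF and IL-4 on 40LB cells, a fibroblast feeder line that presents CD40L and BAFF. The Control group was 3 mice with Cg1-cre and the Prmt1-null group was 3 mice with Cg1-cre Prmt1f/f, each with 2 females and 1 male and 1 library per mouse. The age of the mice is not given in the sources used here. All 6 mice carried the Cre recombinase, which is driven by the immunoglobulin γ1 constant region locus and by design acts after B cells are activated. The floxed gene, Prmt1, encodes the main enzyme that makes asymmetric dimethylarginine in proteins. All cultures received the same BAFF-presenting feeders, which were depleted with an antibody before RNA was purified, and no culture lacked BAFF.

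BAFF keeps mature B cells alive, mainly through BAFF-R, which signals by removing the adaptor TRAF3 and so stabilizing the kinase NIK, the start of the noncanonical NF-kB pathway. TACI binds BAFF and APRIL, limits the size of the B cell pool and takes part in isotype switching and plasma cell differentiation. BCMA binds APRIL with high affinity, appears late in B cell differentiation and supports the survival of long-lived plasma cells. The receptors can be cut from the cell surface, TACI by ADAM10, BAFF-R by ADAM10 and ADAM17, and BCMA by γ-secretase.

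The 3 genes lie on different chromosomes. In mm10, with the GENCODE M21 annotation, Tnfrsf13b (ENSMUSG00000010142) spans chr11:61126755-61149372 on the plus strand, Tnfrsf13c (ENSMUSG00000068105) spans chr15:82221743-82224369 on the minus strand, and Tnfrsf17 (ENSMUSG00000022496) spans chr16:11313812-11320074 on the plus strand. Their exons cover 2836, 2048 and 815 bases, and in this annotation the exons of no other gene overlap them. Counting used an Ensembl gene set, for which overlap was not checked. The 250 bases before each start site are shown because each receptor gene has its own promoter and the 3 differed widely in transcript level. They are RefSeq sequences of GRCm38.p6, written 5′ to 3′ on the strand of the gene, at chr11:61126505-61126754 (plus), chr15:82224381-82224630 (minus) and chr16:11313559-11313808 (plus), and capitals mark CG dinucleotides.
Tnfrsf13b: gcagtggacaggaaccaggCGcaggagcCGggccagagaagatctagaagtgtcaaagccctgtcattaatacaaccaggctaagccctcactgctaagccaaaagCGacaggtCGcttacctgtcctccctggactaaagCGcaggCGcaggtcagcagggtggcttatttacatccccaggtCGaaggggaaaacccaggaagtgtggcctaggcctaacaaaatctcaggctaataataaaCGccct
Tnfrsf13c: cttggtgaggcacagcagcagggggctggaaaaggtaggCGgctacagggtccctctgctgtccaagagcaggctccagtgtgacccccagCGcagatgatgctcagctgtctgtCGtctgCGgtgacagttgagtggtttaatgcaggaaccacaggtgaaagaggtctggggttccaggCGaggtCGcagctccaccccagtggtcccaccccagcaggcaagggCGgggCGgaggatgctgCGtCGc
Tnfrsf17: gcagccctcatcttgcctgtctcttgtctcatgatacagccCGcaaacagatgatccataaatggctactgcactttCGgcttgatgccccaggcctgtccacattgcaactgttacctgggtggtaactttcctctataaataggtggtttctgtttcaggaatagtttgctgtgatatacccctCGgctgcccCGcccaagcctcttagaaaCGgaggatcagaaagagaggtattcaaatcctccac
CG occurred 8 times in the Tnfrsf13b window, 10 times in that of Tnfrsf13c and 5 times in that of Tnfrsf17, against a median of 6 over 32851 mouse promoters, of which 92.1% held at least 1. Both strands were searched for the other motifs, except the E box, whose pattern is the same on either strand. The TATA motif TATAAA was found in the Tnfrsf17 window, with its first base 114 bases before the start, and in 12.4% of all promoters. The GC box GGGCGG, which contains a CG, occurred 2 times for Tnfrsf13c, 1 time for Tnfrsf17 and 0 times for Tnfrsf13b, and 32.7% of promoters held it. The E box CANNTG was counted 4 times for Tnfrsf13c, 2 times for Tnfrsf17 and 0 times for Tnfrsf13b, with 66.2% of promoters holding it. The ETS core GGAA was counted 3 times for Tnfrsf13b, 3 times for Tnfrsf13c and 2 times for Tnfrsf17, as in 93.4% of promoters with 1 or more. A kappaB motif was in 0 of the 3 windows and in 3.9% of promoters. These are matches of letters and no binding was measured.

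The libraries held 45343250 to 62774232 counts, and replicates within a group differed by far more than sampling noise. Prmt1 served to check the labels. Its counts, normalized to library size, came to 3941, 3901 and 4809 in Control against 1734, 1469 and 1469 in Prmt1-null iGBs, a log2 fold change of −1.44 ± 0.095 (SE; edgeR adjusted p = 1.11e-05). The B cell marker list had the highest sum, 12637 to 14250 CPM (counts scaled to library size) over the 6 libraries. Markers of 40LB fibroblasts remained at a low level. The sum over their list was 27.42 to 32.11 CPM in Control and 31.5 to 37.01 CPM in Prmt1-null iGBs, with 0 of 11 tested genes past the threshold and 2 at an unadjusted p under 0.05 (DESeq2 0, limma-voom 0). The T cell list summed to 23.62 to 27.85 CPM and 25.89 to 28.97 CPM, with 0 of 6 tested genes called and 0 at an unadjusted p under 0.05 (edgeR; DESeq2 0, limma-voom 0). The myeloid list summed to 51.88 to 56.85 CPM and 67.79 to 76.04 CPM. Of its 7 genes 2 were called by edgeR, DESeq2 and limma-voom alike, with 4 log2 fold changes above 0 and 3 below. Ly6c2 rose by 1.12 ± 0.158 and Adgre1 by 0.73 ± 0.147 on the log2 scale (SE; edgeR adjusted p = 0.00491 and 0.0319), while Lyz2, a defining myeloid gene, had at most 86.4 normalized counts in any library and a log2 fold change of −0.75 ± 0.928 (edgeR adjusted p = 0.788). Cd68, a lysosomal gene with the highest level per length of the list, and Mpo had log2 fold changes of −0.06 ± 0.105 and −0.23 ± 1.02. Csf1r and Itgam, both of the macrophage lineage, had log2 fold changes of 0.33 ± 0.292 and 0.11 ± 0.227. The call for Adgre1 held in 1 of the 6 fits that left out a library, the fit without Control 3 (edgeR adjusted p = 0.017).

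Tnfrsf13c, the gene for BAFF-R, had by far the highest level among the 3 receptors. Its raw counts were 43485, 50055 and 41254 in Control libraries 1, 2 and 3 and 57594, 58917 and 63154 in Prmt1-null libraries 1, 2 and 3. After normalization these became 52515, 43682 and 45180 in Control and 57963, 53985 and 59338 in Prmt1-null iGBs. All 3 Prmt1-null libraries stood above all 3 Control libraries, and the nearest pair was Prmt1-null 2 and Control 1. The group means were 47125 ± 4727 and 57095 ± 2780 normalized counts (SD, n = 3 each), 21.2% higher in Prmt1-null iGBs. The log2 fold change was 0.28 ± 0.075 (SE), with an unadjusted p of 0.00255 and an adjusted p of 0.0992 by the edgeR quasi-likelihood test over 18268 genes. The difference did not pass the threshold, an adjusted p under 0.05.

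Tnfrsf13b, the gene for TACI, differed by a similar amount. Its raw counts were 9732, 13752 and 10164 in Control and 13342, 15565 and 14478 in Prmt1-null libraries. The normalized counts were 11753, 12001 and 11131 in Control and 13427, 14262 and 13603 in Prmt1-null iGBs. The groups again did not overlap, and the libraries of a group lay closer together than those for Tnfrsf13c. The means were 11628 ± 448 and 13764 ± 440 normalized counts (SD, n = 3 each), 18.4% higher in Prmt1-null iGBs. The log2 fold change was 0.24 ± 0.059 (SE), with an unadjusted p of 0.00111 and an edgeR adjusted p of 0.068, also short of the threshold.

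**Figure D1:**
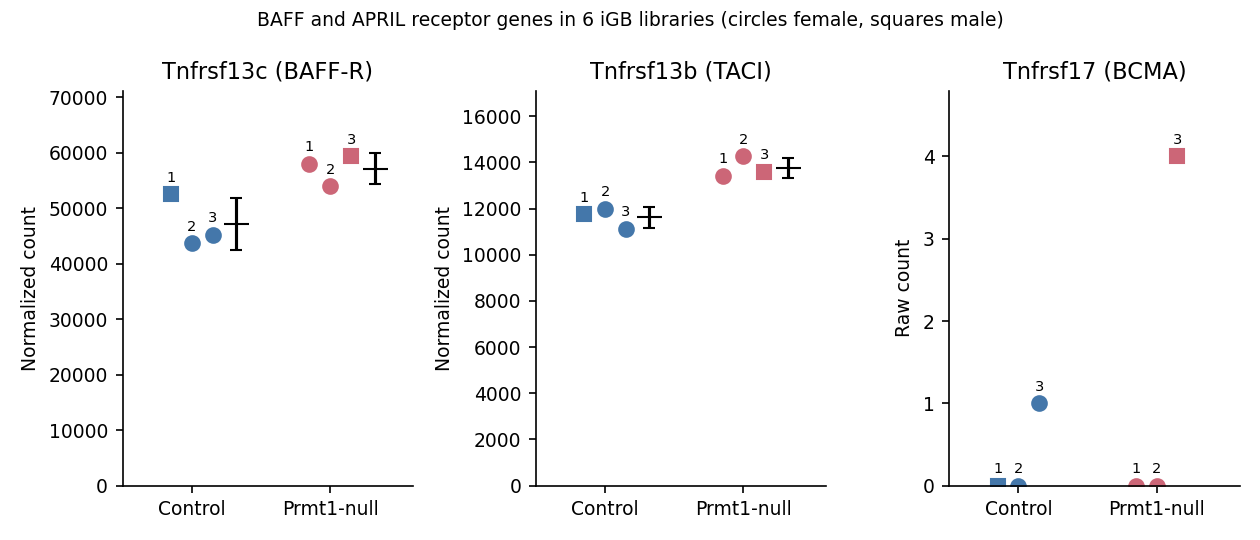
Counts of the 3 receptor genes in each library, by group, on axes that start at 0: normalized counts for Tnfrsf13c and Tnfrsf13b and raw counts for Tnfrsf17, with numbers giving the library, circles females, squares males and black bars the mean ± SD of 3 libraries. For Tnfrsf13c and Tnfrsf13b every Prmt1-null library lies above every Control library, while Tnfrsf17 had at most 4 counts.

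Thus 0 of the 2 tested receptors were called by edgeR, although both had an unadjusted p under 0.05, as did 2467 (13.5%) of all tested genes. edgeR called 218 of the 18268 genes (1.19%), of which 108 (0.591% of the tested genes) were higher in Prmt1-null iGBs. The separation of the groups was less rare, since 9.95% of tested genes had all Prmt1-null libraries above all Control libraries and 19.9% were separated in either direction. The verdict on both receptors depended on the test. DESeq2, the tool used by the study, called both, with adjusted p of 0.0021 for Tnfrsf13b and 0.00495 for Tnfrsf13c, and it called 5.42% of the 13091 genes to which it gave an adjusted p. limma-voom also called both (adjusted p = 0.0438 and 0.0418) and called 1.37% of genes. With sex added to the model, edgeR called 1.58% of genes, among them Tnfrsf13c (adjusted p = 0.0277) but not Tnfrsf13b (adjusted p = 0.0591). Without Control 1, the log2 fold change of Tnfrsf13c was 0.37 and its edgeR adjusted p 0.017, whereas without any 1 of the other libraries its adjusted p was 0.132 to 0.322. For Tnfrsf13b, 0 of the 6 fits that left out a library passed the threshold (edgeR adjusted p = 0.0799 to 0.302). The fold change itself moved little between tools, and it was above 0 in every fit.

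**Figure D2:**
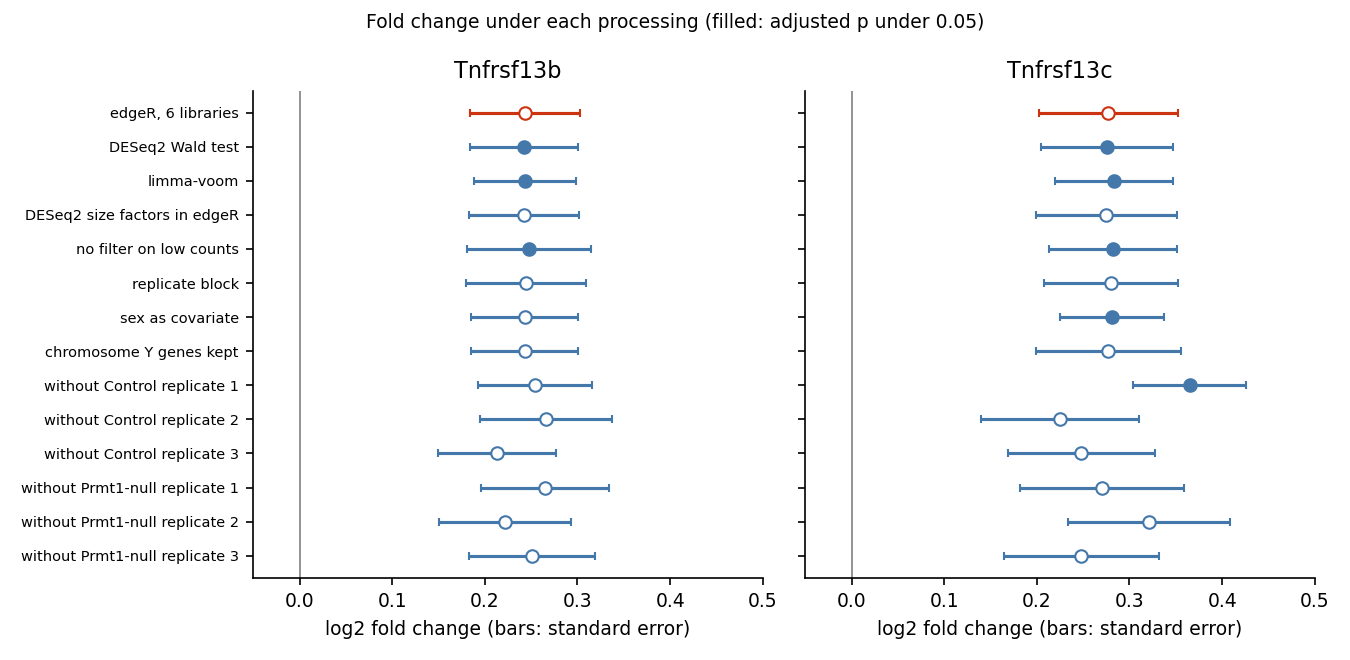
Log2 fold change of Tnfrsf13b and Tnfrsf13c (Prmt1-null against Control, bars SE) from the edgeR fit of 6 libraries (red) and from each alternative fit (blue), with filled points for an adjusted p under 0.05. All points lie above 0, between 0.213 and 0.266 for Tnfrsf13b and between 0.225 and 0.365 for Tnfrsf13c, while the side of the threshold varies with the fit.

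Both sexes showed the same direction. Among females, the mean of Tnfrsf13b was 11566 normalized counts in Control against 13845 in Prmt1-null iGBs, a log2 difference of 0.26, and in the 1 male of each group it was 11753 and 13603, a log2 difference of 0.21. For Tnfrsf13c the means were 44431 and 55974 in females, a log2 difference of 0.33, and 52515 and 59338 in males, a log2 difference of 0.18. The male library had the highest normalized count of Tnfrsf13c in each group. With 1 male per group, no difference between the sexes was tested.

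Tnfrsf17, the gene for BCMA, was at or near 0. Control libraries 1, 2 and 3 held 0, 0 and 1 raw counts, against 0, 0 and 4 in Prmt1-null libraries 1, 2 and 3. Only Prmt1-null 3 exceeded 3 counts, the smallest number taken as detected, and the groups overlapped at 0. With 3 counts standing for 0.0586 to 0.0812 CPM per kb of exon in these libraries, a Tnfrsf17 level of more than 0.0121 to 0.0182% of the Tnfrsf13c level in the same library would have reached the limit. A difference between the groups below these levels was not detectable at this depth, and the limits cover counting error only. In the edgeR fit without the filter on low counts, the adjusted p of Tnfrsf17 was 0.853.

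Levels of different genes were compared per length, in CPM per kb of exon. Tnfrsf13c had 417.5 ± 41.9 CPM per kb in Control and 505.8 ± 24.6 CPM per kb in Prmt1-null iGBs (SD, n = 3), a level above that of 98.3% of tested genes. Tnfrsf13b had 74.4 ± 2.87 and 88.0 ± 2.81 CPM per kb, above 94.6% of tested genes. The order Tnfrsf13c, Tnfrsf13b, Tnfrsf17 was the same in all 6 libraries, and no library of one receptor overlapped the libraries of another. Of the summed receptor level, Tnfrsf13c made up 83.4 to 86.1% in Control and 84.0 to 85.8% in Prmt1-null libraries, and Tnfrsf13b 13.9 to 16.6% and 14.2 to 16.0%. The balance between them was hence alike within the spread of the libraries. The log2 ratio of Tnfrsf13b to Tnfrsf13c counts within a library, which no scaling can alter, was −2.01 ± 0.15 in Control and −2.05 ± 0.11 in Prmt1-null iGBs (SD, n = 3), a difference of −0.04 with a two-sided exact permutation p of 0.7. This test of 3 against 3 libraries has 20 arrangements and cannot go below 0.1. RNA from a mixture of cells cannot show whether more cells expressed a receptor or each cell had more of its RNA.

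The ligands were nearly silent in iGBs. Tnfsf13b encodes BAFF, Tnfsf13 encodes APRIL and Tnfsf12 encodes TWEAK, a neighbor of APRIL that binds another receptor. Tnfsf13b had 10, 41 and 60 raw counts in Control and 33, 29 and 35 in Prmt1-null libraries, with Control 1 the lowest and Control 3 the highest of the 6. Tnfsf13 had 6, 12 and 14 raw counts in Control and 10, 16 and 15 in Prmt1-null libraries. Tnfsf12 had 8, 32 and 18, and 16, 20 and 33. All 3 overlapped between the groups, and 0 of 3 passed the edgeR test or had an unadjusted p under 0.05 (limma-voom 0; edgeR adjusted p = 0.867 to 0.931), and DESeq2 gave none of them an adjusted p. Their median log2 fold change was 0.18. The exons of Tnfsf12 and Tnfsf13 overlap those of the read-through gene Tnfsfm13, so the counts of both are uncertain. Cd40lg, the gene for the CD40 ligand that the feeders present, had 22, 21 and 8 raw counts in Control and 0, 30 and 2 in Prmt1-null libraries, without a difference past the threshold (edgeR adjusted p = 0.789). The part of feeder RNA in these counts was not tested.

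Adaptors and NF-kB genes, which carry the signal inward from the receptors, were present at moderate to high levels and 0 of 31 passed the edgeR threshold. There were 5 with an unadjusted p under 0.05, DESeq2 called 2 and limma-voom 0, and the median log2 fold change was 0.00162, against −0.000816 for all tested genes. Genes that act just downstream of BAFF-R did not pass the threshold. Map3k14, the gene for NIK, had 1868, 2145 and 2138 normalized counts in Control against 2192, 1978 and 1991 in Prmt1-null iGBs. Traf3, whose product holds NIK in check, had 2624, 2448 and 2249, and 2374, 2274 and 2478. Both overlapped between the groups, and Traf2, which with TRAF3 recruits the ligases that degrade NIK, did so as well (edgeR adjusted p = 0.905, log2 fold change 0.03 ± 0.088). Birc2 and Birc3, which encode those ligases (cIAP1 and cIAP2), had log2 fold changes of −0.15 ± 0.056 and −0.15 ± 0.065 (SE; edgeR adjusted p = 0.234 and 0.314), and in both every Prmt1-null library lay below every Control library.

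The NF-kB subunits also stayed short of the threshold. Nfkb2, which encodes the p100 precursor processed in the noncanonical pathway, had 8874, 9224 and 9345 normalized counts in Control against 10196, 9803 and 9648 in Prmt1-null iGBs, without overlap (log2 fold change 0.11 ± 0.057, edgeR adjusted p = 0.424). Its partner Relb overlapped (0.14 ± 0.109, edgeR adjusted p = 0.639), and Nfkb1, the canonical p105 gene, had a log2 fold change of −0.13 ± 0.063 (edgeR adjusted p = 0.391). The smallest p of the list belonged to Nfkbie and Tnfaip3, which encode feedback inhibitors of NF-kB. Nfkbie, which encodes IκBε, had 3986, 4231 and 4565 normalized counts in Control against 5412, 5168 and 4947 in Prmt1-null iGBs, all higher (0.28 ± 0.066, edgeR adjusted p = 0.0571). Tnfaip3, which encodes the deubiquitinase A20, had 9286, 9664 and 10377, and 11551, 11528 and 11213, also all higher (0.23 ± 0.06, edgeR adjusted p = 0.095). DESeq2 called these as its 2 genes, with adjusted p of 0.00621 and 0.00868. Without Control 3, edgeR called both (adjusted p = 0.0191 and 0.0395), and with sex in the model it called Nfkbie (adjusted p = 0.0406). Other inhibitors in the list did not pass. The IκB genes Nfkbia and Nfkbib had log2 fold changes of 0.08 ± 0.076 and 0.115 ± 0.124 (edgeR adjusted p = 0.7345 and 0.756). The deubiquitinase genes Cyld and Otud7b had −0.10 ± 0.057 and −0.08 ± 0.059 (edgeR adjusted p = 0.48 and 0.634). Traf1, an NF-kB-induced adaptor, had a log2 fold change of 0.15 ± 0.062 (edgeR adjusted p = 0.29).

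Genes for receptor shedding gave 0 calls among 9 (1 at an unadjusted p under 0.05, DESeq2 0, limma-voom 0), and their median log2 fold change was 0.05. Adam10, the sheddase of TACI and BAFF-R, had 17222, 15890 and 15989 normalized counts in Control against 14588, 14943 and 15210 in Prmt1-null iGBs. All Prmt1-null libraries were lower, but by a log2 fold change of −0.13 ± 0.06 that missed the threshold (edgeR adjusted p = 0.344). Adam17 overlapped between the groups (0.09 ± 0.063, edgeR adjusted p = 0.583). The γ-secretase subunit genes Ncstn and Psenen had log2 fold changes of 0.11 ± 0.06 and 0.22 ± 0.259 (edgeR adjusted p = 0.445 and 0.779), the latter at 101 to 231 normalized counts.

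Survival genes and genes maintained by BAFF held the calls of the pathway. Of 12 genes, 1 rose and 1 fell by the edgeR test, 6 had an unadjusted p under 0.05, and the median log2 fold change was 0.10. Pim2, a kinase that promotes survival of BAFF-stimulated B cells, rose. It had 3174, 3784 and 3779 normalized counts in Control against 5452, 5373 and 4578 in Prmt1-null iGBs, with Prmt1-null 3 the lowest of its group but above all controls (log2 fold change 0.52 ± 0.084, edgeR adjusted p = 0.00921). Cr2, which encodes the complement receptor CD21, whose expression on B cells depends on BAFF, fell. Its normalized counts were 8853, 8265 and 7823 in Control and 6931, 5136 and 5803 in Prmt1-null iGBs, all lower (−0.48 ± 0.091, edgeR adjusted p = 0.0241). DESeq2 and limma-voom called the same genes, Pim2 and Cr2, in this list. The call for Pim2 was lost without Prmt1-null 1 or Prmt1-null 2 (edgeR adjusted p = 0.0731 and 0.0739). That for Cr2 was lost without Control 1, Control 2, Prmt1-null 2 or Prmt1-null 3 (edgeR adjusted p = 0.0652, 0.104, 0.132 and 0.108).

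The remaining genes of this list did not pass the threshold. Bcl2a1d, an A1 gene of the BCL-2 family, had 2936, 3044 and 3006 normalized counts in Control against 3431, 3359 and 3600 in Prmt1-null iGBs (0.21 ± 0.063, edgeR adjusted p = 0.136). The A1 copies Bcl2a1a and Bcl2a1b had log2 fold changes of −0.04 ± 0.098 and 0.12 ± 0.075 (edgeR adjusted p = 0.9025 and 0.517). Reads of these near-identical copies may be divided unevenly. Bcl2, the founding antiapoptotic gene, had a log2 fold change of −0.18 ± 0.066 and overlapped between the groups (edgeR adjusted p = 0.229). Bcl2l1, which encodes BCL-XL, had 0.24 ± 0.104 (edgeR adjusted p = 0.316), and Mcl1, needed for survival of germinal center B cells, had 0.11 ± 0.063 (edgeR adjusted p = 0.471). Fcer2a, which encodes the CD23 antigen that like CD21 marks BAFF-dependent mature B cells, had 118398, 126741 and 131059 normalized counts in Control against 139906, 133997 and 137278 in Prmt1-null iGBs, in the opposite direction to Cr2 but short of the threshold (0.13 ± 0.058, edgeR adjusted p = 0.35). Over the 4 pathway lists together, 2 of 55 genes were called by edgeR (limma-voom 2, DESeq2 4), 12 had an unadjusted p under 0.05, and the median log2 fold change was 0.04. Among all tested genes edgeR called 1.19%, and 13.5% had an unadjusted p under 0.05. The lists were chosen with earlier results of these data known, so this comparison is not independent of them.

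**Figure D3:**
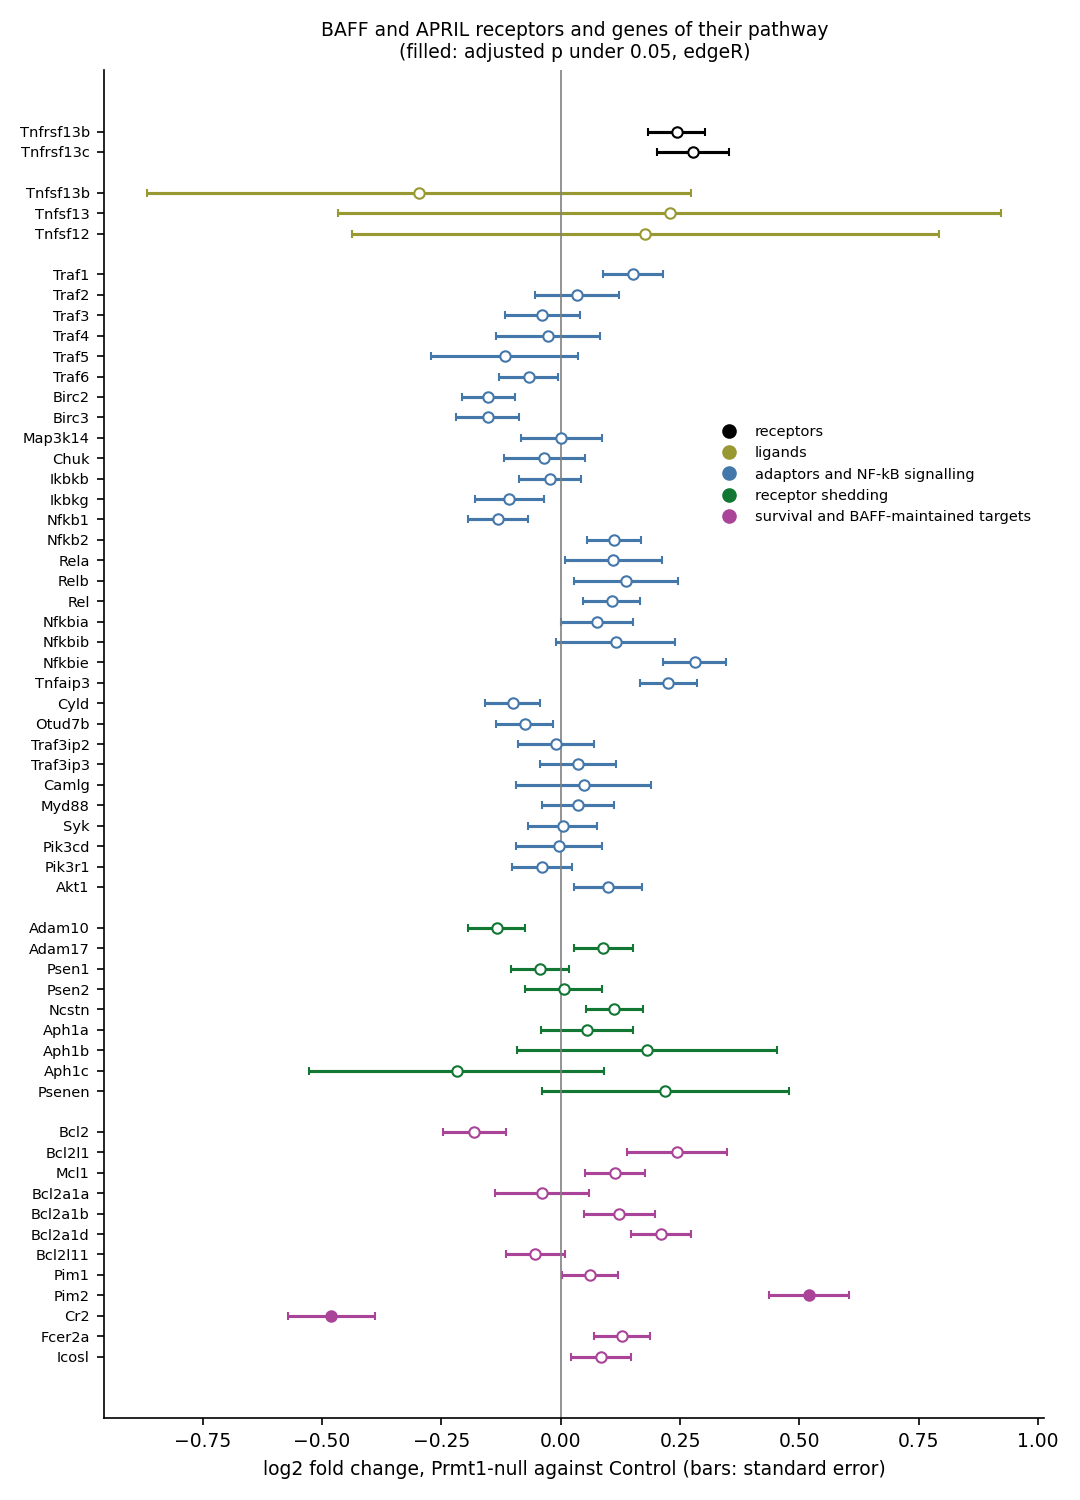
Log2 fold change (Prmt1-null against Control, bars SE) of the 2 tested receptors and of the 55 genes of the pathway, colored by role, with filled points for an edgeR adjusted p under 0.05. Pim2 at 0.52 and Cr2 at −0.48 are the filled points, the adaptors and NF-kB genes lie between −0.15 and 0.28, and the ligands have the widest bars.

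Both receptors belong to the TNF receptor superfamily, of which 25 other genes were listed and 20 passed the filter. Tnfrsf13c and Tnfrsf13b had the highest levels per length of the family. Fas, a death receptor raised in germinal center B cells, came next with 51.1 ± 2.43 CPM per kb in Control and 54.7 ± 2.05 CPM per kb in Prmt1-null iGBs, its 6 libraries all below those of Tnfrsf13b. Cd40, the receptor for the other feeder signal, had 19.6 ± 1.59 and 19.7 ± 0.961 CPM per kb. Tnfrsf26, a close relative of the mouse TRAIL decoy receptors, had 17.6 ± 1.19 and 21.5 ± 1.26 CPM per kb, so Cd40 and Tnfrsf26 could not be ordered beyond their spread. Fas and Cd40 did not pass the threshold (log2 fold change 0.10 ± 0.059 and 0.01 ± 0.072, edgeR adjusted p = 0.51 and 0.982).

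One other gene of the superfamily was called. Tnfrsf8, which encodes the activation marker CD30, rose. It had 977, 1034 and 815 normalized counts in Control against 1301, 1401 and 1358 in Prmt1-null iGBs, without overlap (log2 fold change 0.52 ± 0.109, edgeR adjusted p = 0.0358). This call was lost when any 1 library was left out (edgeR adjusted p = 0.0575 to 0.194). Tnfrsf26, with 3357, 2964 and 3030 normalized counts in Control against 3558, 3975 and 3906 in Prmt1-null iGBs, had a log2 fold change of 0.29 ± 0.071 (edgeR adjusted p = 0.0694), and an antisense gene overlaps its exons. Without Control 1 edgeR called Tnfrsf26 (log2 fold change 0.35, adjusted p = 0.0449) in place of Tnfrsf8. DESeq2 called both and limma-voom called Tnfrsf8. Relt and Tnfrsf23 had log2 fold changes of −0.26 ± 0.128 and 0.35 ± 0.179 (edgeR adjusted p = 0.399 and 0.426). The costimulatory receptors Tnfrsf9 (4-1BB) and Cd27 were low, at 58.0 to 142.9 and 33.2 to 57.4 normalized counts, and neither passed. Their log2 fold changes were 0.52 ± 0.295 and 0.46 ± 0.386 (edgeR adjusted p = 0.48 and 0.662). For Cd27 every Prmt1-null library lay above every Control library. In all, 18 of the 20 had a log2 fold change above 0 and 2 below, with a median of 0.20, while 9114 of all tested genes were above 0 and 9154 below. The feeder list had 9 genes above 0 and 2 below with a median of 0.22, and the T cell list 5 above and 1 below with a median of 0.28. Only 2 of the 20 had an unadjusted p under 0.05. Tnfrsf11a, which encodes RANK and was named after its values were seen, had 0, 0 and 0 raw counts in Control and 25, 14 and 5 in Prmt1-null libraries. The filter on low counts removed it. Without that filter, edgeR called 2.76% of genes, among them Tnfrsf11a (adjusted p = 0.0212) with Tnfrsf8 and Tnfrsf26. With every Control library at 0, only the Prmt1-null counts could bring it into a fit, so this call is no support for a difference. DESeq2 gave it no adjusted p.

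**Figure D4:**
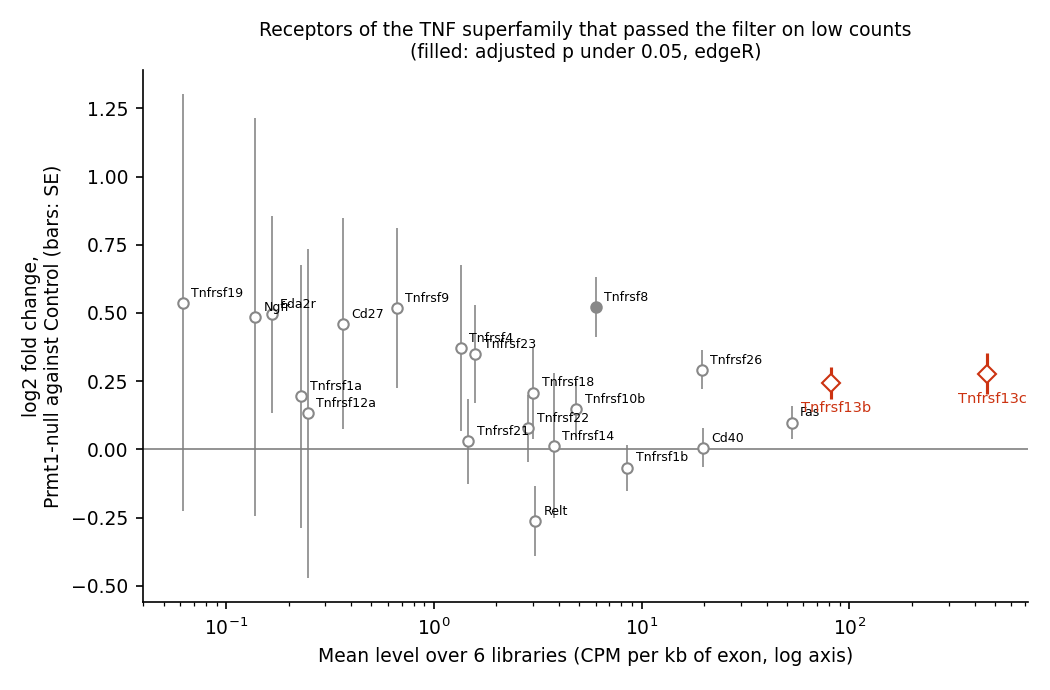
Log2 fold change (Prmt1-null against Control, bars SE) against the mean level over the 6 libraries in CPM per kb of exon, on a log axis, for Tnfrsf13b and Tnfrsf13c (red diamonds) and the 20 other TNF receptor superfamily genes that passed the filter (gray; filled for an edgeR adjusted p under 0.05). The 2 BAFF receptors lie farthest right, and Tnfrsf8 at 0.52 is the filled point.

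Plasma cell genes were read beside the receptors, since TACI and BCMA change as B cells differentiate. Their list, which includes Tnfrsf17, summed to 1578 to 1698 CPM in Control and 1770 to 1873 CPM in Prmt1-null libraries. The sums did not overlap. Neither did those of the survival list (3446 to 3726 and 3759 to 3927 CPM) or of the myeloid list. Those of the other TNF receptor superfamily list, 346.7 to 365.1 and 376.7 to 394.2 CPM, were separate as well. The median log2 fold change of the plasma cell list was 0.18, with 8 genes above 0 and 2 below. Of 10 tested genes 0 were called by edgeR, 3 had an unadjusted p under 0.05, and DESeq2 and limma-voom each called 2, namely Slamf7 and Xbp1. With sex in the model edgeR also called Slamf7 and Xbp1 (adjusted p = 0.0409 and 0.0415), as it did without the filter on low counts (adjusted p = 0.0116 and 0.00098), and with chromosome Y genes kept it called Slamf7 (adjusted p = 0.0465). Slamf7, a surface receptor of plasma cells, had a log2 fold change of 0.25 ± 0.056 (edgeR adjusted p = 0.0506), and an antisense gene overlaps its exons. Xbp1, the regulator of the secretory program, had 18781, 18322 and 18877 normalized counts in Control against 20727, 24324 and 23487 in Prmt1-null iGBs (0.29 ± 0.068, edgeR adjusted p = 0.0571). Sdc1, which encodes CD138, the surface mark of plasma cells, was at 65 to 160 normalized counts (log2 fold change 0.52 ± 0.302, edgeR adjusted p = 0.489). Prdm1, which encodes Blimp-1, had a log2 fold change of 0.29 ± 0.136 (edgeR adjusted p = 0.384). Irf4, a regulator of plasma cell fate, had a log2 fold change of 0.16 ± 0.072 (edgeR adjusted p = 0.337), and Cd93, kept by long-lived plasma cells, one of 0.19 ± 0.091 (edgeR adjusted p = 0.374). Prdm1 and Cd93 were high in Control 3, and without it edgeR called both (log2 fold change 0.50 and 0.34, adjusted p = 0.0212 and 0.0174). Without Control 2 the value for Prdm1 was 0.15, and without Control 1 that for Cd93 was 0.12. Jchain, which encodes the joining chain of secreted antibodies, and Ell2, an elongation factor gene of secreting cells, had log2 fold changes of −0.09 ± 0.077 and −0.12 ± 0.072, and Mzb1, an endoplasmic reticulum chaperone gene, had 0.08 ± 0.065. The part of these genes in the receptor values was not tested. The B cell list had 0 of 10 genes called by edgeR (3 at an unadjusted p under 0.05, DESeq2 2, limma-voom 0), with Cd79b at 0.19 ± 0.075, Ptprc at −0.17 ± 0.06 and Ms4a1 at 0.09 ± 0.053 on the log2 scale.

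The pattern of each receptor over the 6 libraries was compared with that of 13078 other genes with a mean normalized count over 100, by the root mean square (RMS) difference of log2 values after each gene's mean was subtracted. For Tnfrsf13b, whose own RMS around its mean was 0.129, the most similar were B4galt1 (0.0219), Gng12, Vps41, Eif2s2 and H2-K2 (0.029). B4galt1, a Golgi galactosyltransferase gene, had 28125, 29454 and 27920 normalized counts in Control against 33486, 34955 and 33687 in Prmt1-null iGBs. Among these genes Eif2s2, which encodes the β subunit of the initiation factor eIF2, was called (log2 fold change 0.24 ± 0.054, edgeR adjusted p = 0.0456). For Tnfrsf13c, with an RMS of its own of 0.167, they were Dhrs7b (0.041), Pomt1, Mrps5, Gm11583 and Smdt1 (0.0505), each highest among the controls in Control 1. Dhrs7b had 801.9, 663.2 and 672.4 normalized counts in Control against 832.3, 830.2 and 850.3 in Prmt1-null iGBs. The difference between the groups is part of this pattern, so the genes picked share it by selection. Their counts and the call of Eif2s2 are no separate support for it. The 2 receptors were not each other's nearest genes. Tnfrsf13c was number 1575 in the order for Tnfrsf13b and Tnfrsf13b number 380 in that for Tnfrsf13c, at an RMS difference of 0.109. Exons of Gng12, Pomt1, Gm11583 and Smdt1 overlap another gene, and H2-K2 has near-identical relatives, so their counts are less certain.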

How the data were processed

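RNA-seq of 6 mouse iGB libraries was analyzed. According to the methods and the submitters' processing notes, reads were trimmed with Trimmomatic 0.32, aligned to mm10 with STAR 2.3.0e and counted on exons of Ensembl genes with featureCounts 1.4.4, keeping primary alignments to at most 2 locations. The values that the authors deposited are raw counts per gene, not normalized. The strand setting of the counting is not given in the sources used here. Other named genes also have exons that overlap a gene on the opposite strand, so their counts are less certain. Among them are Nfkb2, Nfkbib, Ncstn, Psenen, Adam17, Bcl2, Ell2, Csf1r, Mpo and Tnfrsf23. The labels give 5 ng/ml IL-4 and the methods 1 ng/ml. Both give day 3.5 after plating for the harvest, and the text of the study's results gives day 4. Groups and sexes were taken from the labels. Of 39017 gene IDs, 37607 matched GENCODE M21 by ID, 804 by symbol and 606 not at all.

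Chromosome Y genes (398) were excluded. Low counts were removed with filterByExpr (minimum count 10), and counts were normalized by TMM and tested with the quasi-likelihood test of edgeR 4.0.16 in R 4.3.3 with Benjamini-Hochberg adjustment. The threshold was an adjusted p under 0.05. Each SE was derived from the log2 fold change and its F statistic. Normalized counts are counts scaled to the mean effective library size. CPM per kb used the union of annotated exons. A floor of 3 counts was 0.0478 to 0.0662 CPM and covers counting error only, since reads carry no molecular identifiers. Alternatives were DESeq2 1.42.0, limma-voom (limma 3.58.1), DESeq2 size factors, no filter, the replicate number as a block, sex as a covariate, chromosome Y genes kept, a mean normalized count over 100, and each library left out. The scripts were tested on simulated data.

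The members and lists were chosen with earlier results of these data known. Genes named were the receptors, Prmt1, the ligands and Cd40lg. In each list every called gene was also named, with the smallest p up to 4 genes, except that the feeder and T cell lists are given only as sums and counts, and 1 gene is not reported here. For each receptor the 5 genes with the most similar pattern were named. Others were named for their role after their values were seen.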

Additional observations from a re-analysis of the deposited data

How the results depend on the processing

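Tnfrsf13b kept its direction in all fits and passed the threshold under DESeq2 (log2 fold change 0.24), limma-voom (0.24) and no filter on low counts (0.25, adjusted p = 0.0126), but in 0 of 6 fits without a library (0.21 to 0.27). Tnfrsf13c did so under DESeq2 (0.28), limma-voom (0.28), no filter on low counts (0.28, adjusted p = 0.00363), sex as a covariate (0.28) and without Control 1 (0.37, range over libraries left out 0.23 to 0.37). With the replicate number as a block, adjusted p were 0.109 (log2 fold change 0.24) and 0.0996 (0.28). Libraries with the same number did not deviate together (correlations −0.07, 0.04 and −0.08), and under the replicate block 152 genes were called against 218 and Tnfrsf8 was lost (adjusted p = 0.0647). Genes called numbered 709 with DESeq2, 710 with no filter and 31 (without Prmt1-null 2) to 350 (without Control 3) with a library left out. It was 128 without Control 1, 60 without Control 2, 51 without Prmt1-null 1 and 77 without Prmt1-null 3. Pathway genes called went from 2 to 4 with DESeq2 and with no filter, and to 0 (without Prmt1-null 2) to 4 (without Control 3) with a library left out, with 1 in the other 4 fits. Other superfamily genes called went from 1 to 2 with DESeq2, 3 with no filter and 0 under the replicate block, and to 0 or 1 with a library left out, the 1, Tnfrsf26, without Control 1. The log2 ratio between the 2 receptors differed by −0.11 to 0.04 between groups with a library left out.

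Signs turned only for genes short of the threshold. With a library left out, log2 fold changes ran from −0.71 to 0.35 for Tnfsf13b, −0.16 to 0.56 for Tnfsf12, −0.036 to 0.50 for Psenen, −1.32 to 0.85 for Lyz2, −0.008 to 0.08 for Traf2, −0.093 to 0.019 for Traf3, −0.057 to 0.035 for Map3k14 and −0.049 to 0.063 for Cd40. limma-voom gave 0.64 for Lyz2 and −0.004 for Map3k14. The cause was not tested. Tnfrsf17 was present only in the DESeq2 fit, without an adjusted p, and in the fit with no filter (adjusted p = 0.853). Its ratios to the other receptors were not computed, because 4 of its 6 counts were 0. The depth limits statements on Tnfrsf17 and the ligands, and 3 libraries per group limit those on the receptors. Each library is 1 mouse.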
